A study of Mus musculus with 18 samples.

Results

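Histone mRNAs were followed through 66 rows of the deposited value table, out of 25138, whose platform annotation names at least 1 histone gene. The rows fall into 47 for the core histones H2A, H2B, H3 and H4, 8 for the linker histone H1, 10 for the variants H2A.Z and H3.3, and 1 that the annotation gives to both a core and a linker gene (H2bc6/H1f4). RNA came from bone marrow-derived macrophages, grown from marrow of C57Bl/6 mice with M-CSF, that were wild type (WT) or TTP-/- (KO). All cells received LPS for 3 h, and the medium was then exchanged for one with actinomycin D to stop transcription and with SB203580 to inhibit p38, and held there for 0, 45 or 90 min. Each of the 6 groups of genotype and time held 3 arrays (Affymetrix Mouse Gene ST 1.0), 18 in all. Time without transcription and time with the p38 inhibitor were the same variable, and no group lacked LPS. The series asks which mRNAs TTP, an RNA-binding protein that recognises AU-rich elements and recruits deadenylases, helps to degrade.

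Core histones form the spool around which DNA is wrapped, and linker histones close the wrap. Most of their genes are replication-dependent: they are transcribed in S phase, and their mRNAs end in a stem-loop, bound by SLBP, in place of a poly(A) tail. These mRNAs are known to be lost quickly when DNA synthesis stops. Variant histones are made throughout the cell cycle from ordinary polyadenylated mRNAs. The labels state random priming of total RNA, a procedure that does not need a poly(A) tail.

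The values are log2 intensities after RMA, so each change is measured against the average mRNA of its array. In bulk RNA, fewer cells with a transcript and less of it per cell cannot be told apart. Array medians lay between intensities of 7.41 and 8.19, and arrays of a group correlated at 0.946 to 0.994. A row was tested if its mean over the 18 arrays was at least the median of all row means (the signal limit, 2.97 on the log2 scale), which held for 12569 rows and 52 histone rows: 4 linker, 38 core, 9 variant and the row of both kinds. All 8 macrophage markers measured lay above this limit, while all 8 neutrophil, 5 T and NK cell, 3 B cell and 2 erythroid markers lay below it, as did 1 of 3 megakaryocyte, 2 of 5 fibroblast and 2 of 3 progenitor markers. Zfp36, which encodes TTP, read 7.64 ± 0.45 (SD, n = 3) in WT and 6.61 ± 0.31 in KO at 0 min, a difference of -1.04 ± 0.32 (SE, limma adjusted p = 0.552), so this row does not check the genotype labels. The numbers in the sample titles form 2 runs: replicate 3 of every group (run A) and replicates 1 and 2 (run B). Replicate 3 of WT at 0 min stood above replicates 1 and 2 of that group in core histone signal, and replicate 2 of KO at 90 min stood above replicates 1 and 3.

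Core histone genes are near copies of each other, so 25 of the 47 core rows carry several symbols. The 10 rows called H3 shared rows 1 to 10 here each carry the same 12 H3c symbols, and the 5 H4 shared rows each carry 11 H4c symbols. The 7 H2B shared rows carry 14 or 15 symbols, and the 2 H2A shared rows carry 20 and 19. H2B shared rows 6 and 7 held identical values, as did H4 shared rows 4 and 5. By their annotation, shared rows are therefore repeated readings of a family and not separate genes.

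Upstream sequence is shown for the members that the results turn on: H1f5 and H1f1, the linker genes whose mRNA fell; H1f2, a linker gene that did not pass the test; H2bc14, a core gene with a row of its own; and H3f3b, a variant gene. Each line gives the 130 bases before the transcription start, 5′ to 3′ on the strand of the gene, from RefSeq on GRCm38.p6. Capitals mark 4 motifs, searched on both strands. They are the CCAAT box, the TATA box in its TATAAA form, the H1 promoter motif known as AAACACA, and the octamer of H2B promoters, which reads ATTTGCAT.
H1f5, chr13:21780626-21780755 (-): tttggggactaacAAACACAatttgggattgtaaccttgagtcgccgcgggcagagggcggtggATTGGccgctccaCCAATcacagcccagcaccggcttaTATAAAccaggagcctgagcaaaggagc
H1f1, chr13:23763538-23763667 (+): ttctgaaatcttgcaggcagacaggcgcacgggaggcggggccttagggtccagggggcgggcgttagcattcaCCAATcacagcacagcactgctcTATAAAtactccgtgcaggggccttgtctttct
H1f2, chr13:23738677-23738806 (+): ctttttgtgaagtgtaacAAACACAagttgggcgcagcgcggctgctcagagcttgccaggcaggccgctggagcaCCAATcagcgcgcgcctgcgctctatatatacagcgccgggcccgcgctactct
H2bc14, chr13:21721914-21722043 (+): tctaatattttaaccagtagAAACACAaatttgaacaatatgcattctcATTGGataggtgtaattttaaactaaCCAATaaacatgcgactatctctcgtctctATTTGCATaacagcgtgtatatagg
H3f3b, chr11:116024505-116024634 (-): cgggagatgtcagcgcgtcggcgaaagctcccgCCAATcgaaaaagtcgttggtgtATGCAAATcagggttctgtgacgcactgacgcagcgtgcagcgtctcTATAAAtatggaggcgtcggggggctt

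A CCAAT stood in all 5 of these stretches, and AAACACA stood in those of H1f5, H1f2 and H2bc14 but not in that of H1f1. Over the 250 bases before the start, CCAAT was found in 17 of 17 H2ac, 15 of 15 H2bc, 8 of 10 H3c, 3 of 11 H4c, 7 of 10 H1f and 4 of 4 variant genes, against 33.8% of 32851 genes in the table. The octamer was found in 6 of 17 H2ac and 7 of 15 H2bc genes, in 1 of 4 variant genes and in none of the H1f, H3c or H4c genes, against 1.6%. AAACACA was found in 5 of 10 H1f, 2 of 17 H2ac, 2 of 15 H2bc and 1 of 4 variant genes and in none of the H3c or H4c genes, against 6.25%. TATAAA was found in 4 of 10 H1f, 7 of 17 H2ac, 7 of 15 H2bc, 4 of 10 H3c, 6 of 11 H4c and 1 of 4 variant genes, against 12.4%. These matches describe letters in a window and do not show binding.

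Core histone mRNAs and the linker mRNAs H1f5 and H1f1 fell over 90 min of transcription block, whereas no variant row passed the test. For the mean of both genotypes, 37 of the 52 histone rows tested fell and none rose (limma, Benjamini-Hochberg adjusted p below 0.05), where 2.27% of all rows tested fell and 0.0557% rose. Histone rows made up 13.0% of the 285 rows that fell. By kind these were 2 of 4 linker rows, 34 of 38 core rows, 0 of 9 variant rows and the row of both kinds. The median change was -1.37 on the log2 scale over all 47 core rows, 0.11 over the 10 variant rows, -0.14 over the 8 linker rows and 0.02 over all rows tested. Of the 8 linker rows, 4 were below the signal limit. The core median was -0.66 over the 22 core rows of 1 symbol, 13 of them tested. Over the 25 core rows of several symbols, which repeat each other, it was -1.49. Over the rows tested alone, the median was -1.45 for core, 0.08 for variant and -1.04 for linker rows, the last ranging from -2.23 to -0.01. With shared rows of 1 symbol list averaged into 1, an alternative chosen after the data were seen, 19 of 34 histone rows fell. The shares of 2.27% and 0.0557% belong to the fit without averaging.

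**Figure D1:**
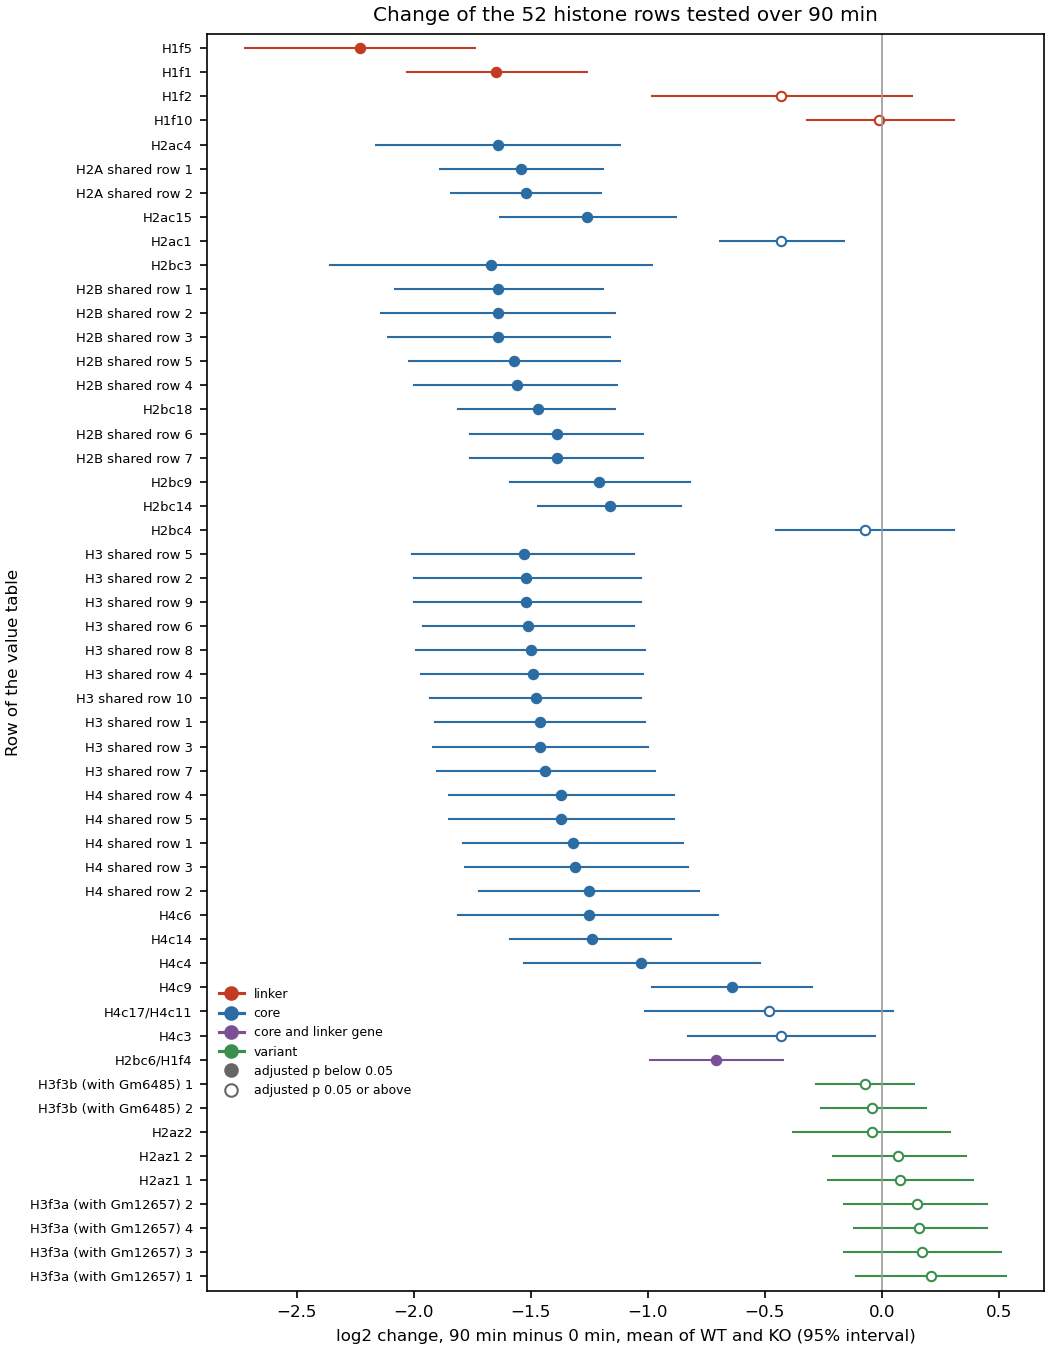
Change in log2 intensity from 0 to 90 min, mean of WT and KO (x axis), for each of the 52 histone rows tested (y axis), with 95% confidence intervals; colour gives the kind of histone and filled points have a limma adjusted p below 0.05. All but 4 of the 38 core rows are filled and lie at -0.64 or lower, whereas the 9 variant rows lie between -0.07 and 0.21.

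H1f5, which encodes linker histone H1.5, showed the largest mean change of the rows tested that carry a histone symbol. Its log2 intensity in WT replicates 1, 2 and 3 was 9.50, 9.51 and 9.70 at 0 min, 8.11, 8.29 and 8.45 at 45 min, and 7.08, 7.27 and 7.16 at 90 min. In KO it was 9.01, 8.68 and 8.90 at 0 min, 7.16, 6.68 and 7.64 at 45 min, and 6.84, 7.73 and 5.83 at 90 min. In both genotypes every array at 45 or 90 min read below every array at 0 min, and the KO arrays at 90 min were spread over a wider range (SD 0.95) than those of WT (SD 0.10). H1f5 fell by 2.40 ± 0.33 (SE) on the log2 scale in WT, to 19.0% of its signal (limma adjusted p = 0.000652). In KO it fell by 2.06 ± 0.33, to 24.0% (adjusted p = 0.00746).

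H1f1 encodes linker histone H1.1. In WT it read 7.40, 7.60 and 8.01 at 0 min and 5.72, 5.44 and 6.14 at 90 min. In KO it read 6.80, 6.71 and 6.92 at 0 min and 5.40, 5.78 and 5.10 at 90 min. The 0 min and 90 min arrays did not overlap in either genotype. H1f1 fell by 1.91 ± 0.26 in WT (adjusted p = 0.000621) and by 1.39 ± 0.26 in KO (adjusted p = 0.0221).

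The other 2 linker rows tested did not pass. H1f2, a replication-dependent linker histone, read 5.13, 5.51 and 4.46 at 0 min and 4.99, 4.65 and 4.19 at 90 min in WT, with overlapping groups. Its mean change was -0.43 ± 0.26, with a 95% interval of -0.98 to 0.13 (adjusted p = 0.799), an interval that includes a loss of nearly 1 log2 unit. H1f10, a replacement linker histone with a polyadenylated mRNA, changed by -0.01 ± 0.15 (interval -0.32 to 0.31). The testis and oocyte linker genes H1f6, H1f7 and H1f8, and H1f3, were below the signal limit, at mean log2 intensities of 1.47 to 2.61, and were not tested.

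**Figure D2:**
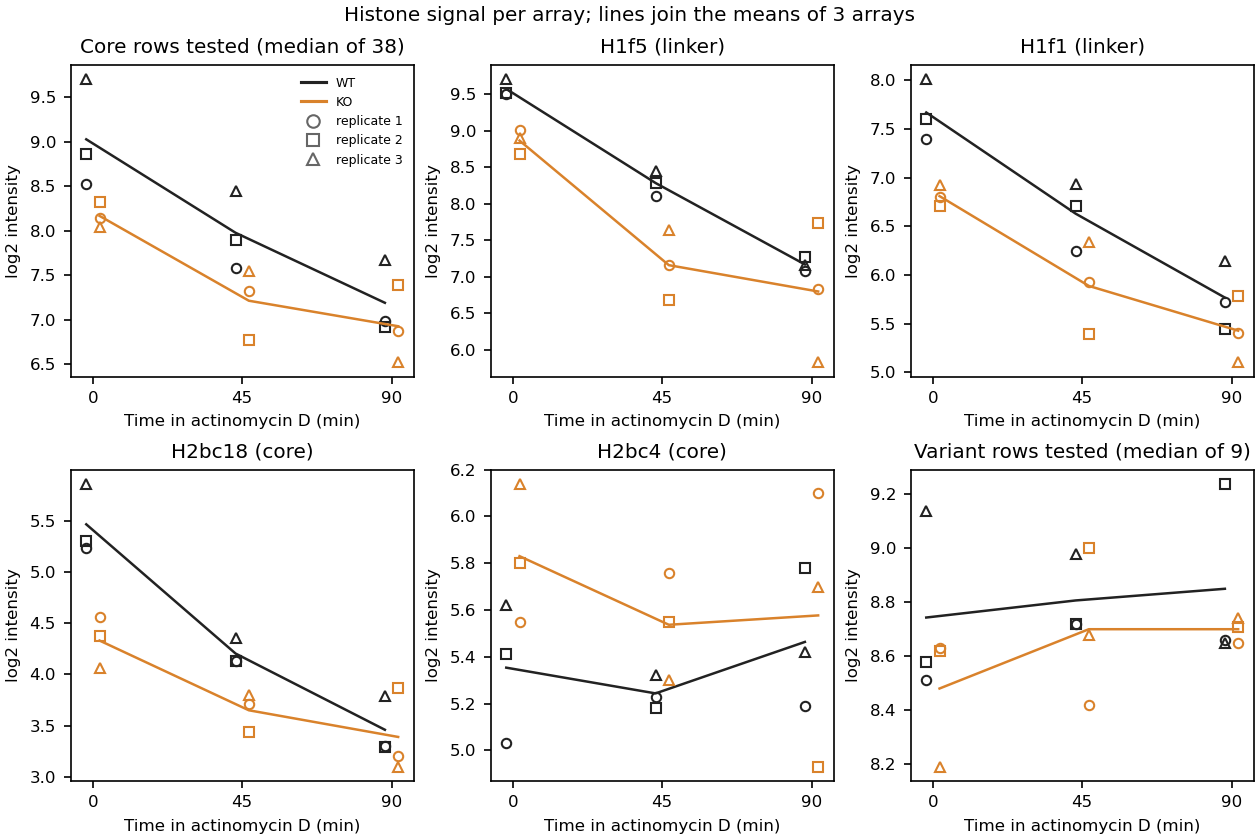
Log2 intensity (y axis) against time in actinomycin D (x axis) for 4 single rows and for the median of the core and variant rows tested; symbols are the 3 replicates of each genotype and lines join their means. Core rows, H1f5, H1f1 and H2bc18 descend in both genotypes, while the groups of H2bc4 overlap at 0 and 90 min; the variant medians overlap in WT and in KO stand at 8.19 to 8.63 at 0 min and 8.65 to 8.74 at 90 min, and each panel has its own y range.

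Among H2A rows, 4 of 5 tested fell in the mean of both genotypes, where 2.27% of all rows tested fell. Shared rows were 2 of the 5. H2A shared row 1, the brightest, read 10.40, 10.40 and 10.74 in WT at 0 min, 9.42, 9.52 and 9.63 at 45 min, and 8.91, 8.71 and 9.11 at 90 min. In KO it read 10.03, 10.05 and 10.12 at 0 min, 9.20, 8.38 and 9.26 at 45 min, and 8.48, 9.11 and 8.19 at 90 min. No array at 45 or 90 min reached the lowest array at 0 min in its genotype. The 2 H2A shared rows fell by 1.60 ± 0.24 and 1.63 ± 0.21 in WT (adjusted p = 0.00104 and 0.000516). They fell by 1.47 ± 0.24 and 1.41 ± 0.21 in KO (adjusted p = 0.00746 for both).

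H2A genes with rows of their own also fell. H2ac15 fell by 1.49 ± 0.25 in WT (adjusted p = 0.00322) and by 1.26 ± 0.18 in the mean of both genotypes. H2ac4 fell by 2.05 ± 0.35 in WT (adjusted p = 0.0032), but its WT mean at 90 min was 2.85, under the signal limit, so background bounds the fall. H2ac1, a testis form of H2A, changed by -0.43 ± 0.13 in the mean of both genotypes (adjusted p = 0.112). H2ac8 was below the limit.

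Among H2B rows, 11 of 12 tested fell in the mean of both genotypes, where 2.27% of all rows tested fell. Shared rows were 7 of the 12. H2bc18 read 5.23, 5.30 and 5.86 in WT at 0 min, 4.13, 4.13 and 4.35 at 45 min, and 3.30, 3.29 and 3.79 at 90 min. In KO it read 4.56, 4.37 and 4.06 at 0 min, 3.71, 3.44 and 3.80 at 45 min, and 3.20, 3.87 and 3.10 at 90 min. The times did not overlap with 0 min in either genotype, and at 0 min every KO array read below every WT array. H2bc18 fell by 2.00 ± 0.22 in WT (adjusted p = 0.000119). In KO its change was -0.94 ± 0.22 (adjusted p = 0.112).

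H2bc14 fell by 1.57 ± 0.20 in WT (adjusted p = 0.00046), from 7.04, 7.10 and 7.62 to 5.75, 5.42 and 5.88. In KO its change was -0.76 ± 0.20 (adjusted p = 0.194), from 6.50, 6.52 and 5.96 to 5.65, 5.81 and 5.24. H2bc9 fell by 1.27 ± 0.26 in WT (adjusted p = 0.0138), a call that was lost without WT 90 min replicate 1 or 2. The 7 H2B shared rows had WT changes between -1.95 and -1.67 and KO changes between -1.36 and -1.12. H2bc3 showed the largest mean change of this family, a fall of 1.67 ± 0.33 (adjusted p = 0.00738), and also the widest spread at 0 min in WT, where it read 5.28, 5.61 and 7.62.

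H2bc4 was the H2B row tested that did not pass. It read 5.03, 5.41 and 5.62 in WT at 0 min and 5.19, 5.78 and 5.42 at 90 min. In KO it read 5.55, 5.80 and 6.14 at 0 min and 6.10, 4.93 and 5.70 at 90 min. The groups overlapped in both genotypes, and the mean change was -0.07 ± 0.18 with an interval of -0.45 to 0.31. The single-gene rows of H2bc1, H2bc8, H2bc21 and H2bc22 were below the signal limit.

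All 10 H3 rows tested fell in the mean of both genotypes, where 2.27% of all rows tested fell. All 10 were shared rows of the same symbols. H3 shared row 6 read 10.06, 10.25 and 10.89 in WT at 0 min, 9.15, 9.35 and 9.57 at 45 min, and 8.74, 8.31 and 8.94 at 90 min. In KO it read 9.78, 9.73 and 9.64 at 0 min, 8.94, 8.54 and 9.11 at 45 min, and 8.15, 9.28 and 7.86 at 90 min. The 0 min arrays stood above all later arrays of their genotype. This row fell by 1.74 ± 0.30 in WT (adjusted p = 0.00377), to 30.0% of its signal, and its KO change was -1.28 ± 0.30 (adjusted p = 0.104). The 10 rows, which carry the same symbols, were alike, with WT changes between -1.76 and -1.66 and KO changes between -1.31 and -1.21. The single-gene rows of H3c4, H3c7 and H3c15 were below the signal limit.

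Among H4 rows, 9 of 11 tested fell in the mean of both genotypes, where 2.27% of all rows tested fell. Shared rows of 11 symbols were 5 of the 11. H4c14 read 7.64, 7.87 and 8.34 in WT at 0 min and 6.34, 6.25 and 6.55 at 90 min, and 6.87, 7.18 and 6.71 in KO at 0 min and 5.75, 6.46 and 5.79 at 90 min. The times did not overlap in either genotype, and H4c14 fell by 1.57 ± 0.23 in WT (adjusted p = 0.00101). H4 shared row 1, the brightest of the family, fell by 1.61 ± 0.32 in WT (adjusted p = 0.0112). Its KO arrays of 7.53, 8.59 and 7.29 at 90 min overlapped with 9.14, 8.92 and 8.45 at 0 min. The calls of H4 shared rows 1, 2 and 4 in WT were lost without WT 90 min replicate 1 or 2.

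H4c6 fell by 1.25 ± 0.26 (adjusted p = 0.0122), and smaller falls in this family were H4c4 at 1.03 ± 0.24 (adjusted p = 0.0272) and H4c9 at 0.64 ± 0.16 (adjusted p = 0.0455), all in the mean of the genotypes. H4c3 changed by -0.43 ± 0.19 (adjusted p = 0.452) and H4c17/H4c11 by -0.48 ± 0.25 (adjusted p = 0.652). These 2 rows and H4c9 started between log2 intensities of 4.37 and 4.67 in WT, nearer to the signal limit than the shared rows at 9.36 to 9.66, and H4c8 was below it. The row of H2bc6 and H1f4 fell by 0.71 ± 0.13 (adjusted p = 0.00582) from 3.98 in WT and 3.64 in KO at 0 min.

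No variant histone row was called in any of the 9 comparisons. Of all rows tested, 2.27% fell in the mean of both genotypes at 90 min, and 0.0796% in WT and 0.0477% in KO at 45 min. No call among 9 rows is near these shares, so the intervals below say more than the count. H3f3b, which encodes H3.3 together with H3f3a, is read by rows that also list a pseudogene. In WT the brighter H3f3b row read 10.13, 10.13 and 10.51 at 0 min and 10.14, 10.20 and 10.01 at 90 min. In KO it read 10.12, 10.18 and 10.21 at 0 min and 10.05, 10.34 and 10.15 at 90 min. The groups overlapped in both genotypes, and the mean change was -0.07 ± 0.10 with an interval of -0.28 to 0.14.

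H2az1 encodes H2A.Z, which marks promoters. Its brighter row read 8.86, 9.11 and 9.53 in WT at 0 min and 8.84, 9.34 and 9.24 at 90 min, and its mean change was 0.08 ± 0.15. H2az2, which encodes a second H2A.Z, changed by -0.04 ± 0.16 with overlapping groups. The H3f3a row with the largest mean change of the variants stood at 0.21 ± 0.15 (adjusted p = 0.888). In KO every 90 min array stood above every 0 min array in 2 of the 4 tested H3f3a rows, that is in 2 of the 9 variant rows, against 5.76% of all rows tested. Intervals of the mean change for the 9 rows reached no lower than -0.38 and no higher than 0.53, so the core median of -1.37 lies outside all of them. The row of H3f3a alone, at a mean of 1.70, was below the signal limit.

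Taken by genotype, 33 of the 52 histone rows fell in WT over 90 min, where 1.32% of all rows tested fell, and none rose. They were 2 of 4 linker rows, 30 of 38 core rows, 0 of 9 variant rows and the row of both kinds. Histone rows were 19.9% of the 166 rows that fell. The median over all 47 core rows was -1.61, which leaves 32.9% of the signal, with -1.80 in run A and -1.49 in run B. Over the 22 core rows of 1 symbol it was -0.75, which leaves 59.6%, and 6 of the 13 tested fell. Over the 25 of several symbols, which repeat each other, it was -1.68, which leaves 31.1%, and 24 fell. The variant median was 0.02, with -0.45 in run A and 0.17 in run B, and that of all rows tested -0.01. The linker median was -0.21 over all 8 rows and -1.17 over the 4 tested. Every WT array at 90 min lay below every array at 0 min in 39 of the 52 rows, against 6.66% of all rows tested.

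In KO over 90 min, 4 of the 52 rows fell: H1f5, H1f1 and both H2A shared rows, where 0.294% of all rows tested fell. All 4 were among the 33 that fell in WT. The core median was -1.11, which leaves 46.3%, with -1.16 in run A, -0.98 in run B and -1.39 without KO 90 min replicate 2. With all arrays it was -0.53 over the 22 core rows of 1 symbol, which leaves 69.1%. Over the 25 of several symbols it was -1.26, which leaves 41.9%. The variant median was 0.19 and that of all rows tested 0.02. Every KO array at 90 min lay below every array at 0 min in 32 rows, against 5.87% of all rows. The number of calls moved with single arrays. Without KO 90 min replicate 2, whose core rows tested had a median of 7.39 against 6.87 and 6.52, 29 rows fell; without WT 0 min replicate 3, 12 fell; without KO 90 min replicate 1 or 3, none did. Within run B alone 3 rows fell, but H1f1 and both H2A shared rows were not among them, and H1f1 also lost its call on leaving out any 1 of the KO arrays at 0 min. Same-numbered KO arrays deviated together, and with the replicate number as a block 12 rows fell.

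**Figure D3:**
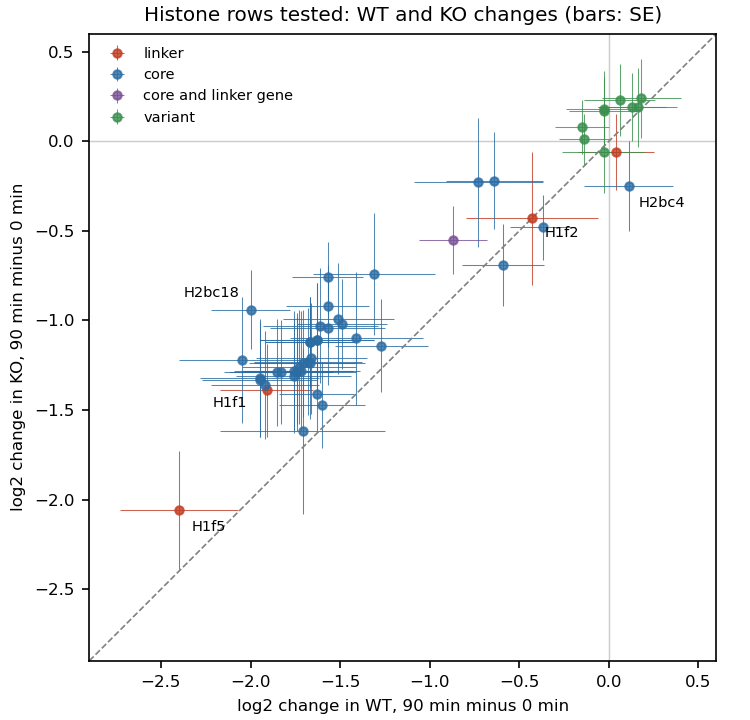
Log2 change from 0 to 90 min in WT (x axis) and KO (y axis) for the 52 histone rows tested, with SE bars and a dashed line of equal change. Most core rows lie above the line, with a median difference of 0.45 over all 47 and of 0.23 over the 22 of 1 symbol. The variant rows lie near 0 in both genotypes.

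The difference in decay between the genotypes was not detectable at this number of arrays. None of the 52 rows passed for the change in KO minus the change in WT at 90 min (limma adjusted p of 0.999 for the rows named here), where 0.00796% of all rows tested, 1 row, passed. At an unadjusted p below 0.05, 2 histone rows were higher, H2bc18 and H2bc14, against 1.62% of all rows tested. The difference for H2bc18 was 1.06 ± 0.32, with an interval of 0.40 to 1.73, and for H2bc14 0.81 ± 0.29 (0.20 to 1.42). These 2 rows were picked by that p, so their intervals leave out 0 by the choice. In both rows every KO array at 0 min read below every WT array, and H2bc18 ended near the signal limit. For H1f5 the difference was 0.34 ± 0.46, with an interval of -0.64 to 1.32, which includes both slower and faster loss in KO. The median difference over all 47 core rows was 0.45, against 0.04 over all rows tested, with 0.44 in run A and 0.52 in run B. It lay between 0.11 and 0.74 when any 1 array was left out: at 90 min it was 0.11 and 0.74 with KO replicate 2 or 3 removed, respectively, and 0.29 with WT replicate 2 removed, and removal of replicate 3 of WT at 0 min gave 0.21. By replicate number it was -0.13, 0.93 and 0.45, so its sign was not shared by all 3. Over the 22 core rows of 1 symbol the median difference was 0.23, with 0.52 in run A and 0.05 in run B. Over the 25 of several symbols, which repeat each other, it was 0.50, with 0.17 in run A and 0.59 in run B. At 45 min none of the 52 rows passed, where 0.00796% of all rows tested did, none had an unadjusted p below 0.05, and the core median was 0.11, with 0.78 in run A and -0.15 in run B. Its sign was not stable, at -0.02 when centred on ribosomal protein genes and between -0.09 and 0.31 when any 1 array was left out.

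At 45 min the core medians lay nearer to 0 than at 90 min. In WT only H2bc18 fell among the 52 rows, by 1.26 ± 0.22 (adjusted p = 0.0406), where 0.0796% of all rows tested fell. At an unadjusted p below 0.05, 36 histone rows were lower, against 2.55% of all rows tested. The call was lost on leaving out any 1 of the WT 45 min arrays, replicate 1 or 2 of WT or of KO at 0 min, replicate 1 or 3 of KO at 45 min, or replicate 1 of either genotype at 90 min. Between 2 and 4 rows fell without WT 0 min replicate 3, KO 45 min replicate 2, or KO 90 min replicate 2 or 3. The core median was -0.99, which leaves 50.3%, and -0.71 without WT 0 min replicate 3. Over the 22 core rows of 1 symbol, with all arrays, it was -0.63, which leaves 64.4%. Every WT array at 45 min lay below every array at 0 min in 35 rows, against 6.54%.

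In KO at 45 min none of the 52 rows fell (limma adjusted p below 0.05), where 0.0477% of all rows tested did, and 34 were lower at an unadjusted p below 0.05, against 3.69% of all rows tested. With the replicate number as a block, 2 fell. Without WT 0 min replicate 3 or KO 90 min replicate 3, 2 fell, and without KO 90 min replicate 2, 3 fell. The core median was -0.73, which leaves 60.1%, with -0.29 in run A and -0.98 in run B. Over the 22 core rows of 1 symbol it was -0.41, which leaves 75.5%. In 27 rows every array at 45 min lay below every array at 0 min, against 7.62% of all rows tested. H1f5 read 30.7% of its 0 min signal at 45 min in KO and 41.1% in WT. Its decay difference at 45 min was not called, and at 90 min the order of the genotypes was the other way.

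Before transcription was blocked, the signal of most core rows and of the 4 linker rows tested was lower on the KO arrays than on the WT arrays, without a call. At 0 min none of the 52 rows passed for KO minus WT, and 0% of all rows tested did; 30 histone rows were lower at an unadjusted p below 0.05, against 4.57% of all rows tested. Every KO array read below every WT array in 35 of the 52 rows, against 8.09% of all rows tested. These were 32 of 38 core, 3 of 4 linker and 0 of 9 variant rows. The core median was -0.68, with -1.28 in run A and -0.39 in run B. Over the 22 core rows of 1 symbol it was -0.43, with -0.99 in run A and -0.11 in run B. The linker median was -0.24 over all 8 rows and -0.51 over the 4 tested. The variant median was -0.22, with -0.82 in run A and 0.00 in run B. By replicate number it was 0.06, 0.03 and -0.82. Without WT 0 min replicate 3, 3 rows passed, the core median without that array was -0.44, and it lay between -0.87 and -0.44 when any 1 array was left out.

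**Figure D4:**
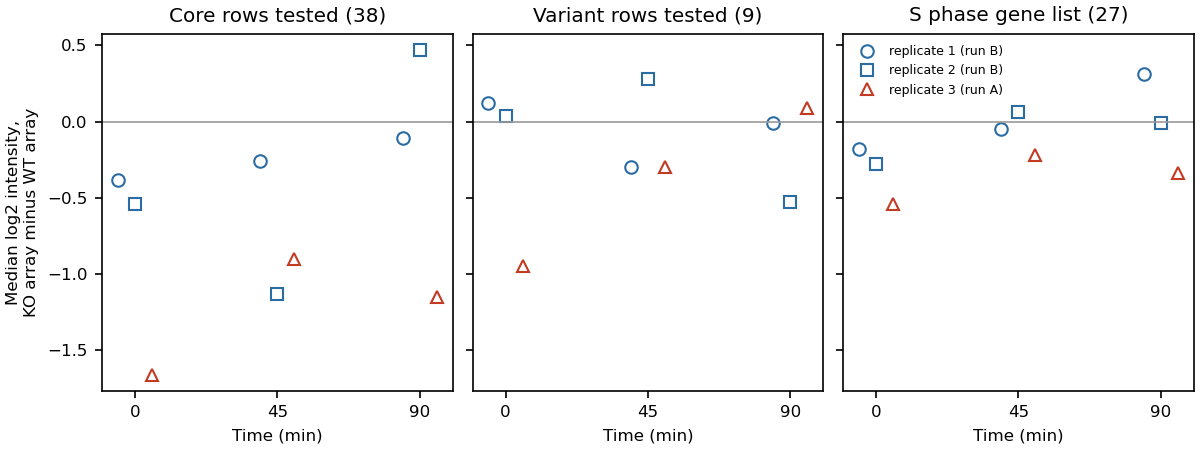
Median log2 intensity of the KO array minus that of the WT array with the same replicate number (y axis) at 0, 45 and 90 min (x axis), for the core rows tested, the variant rows tested and the S phase gene list; colours give the 2 runs of title numbers. For core rows 8 of the 9 differences lie below 0, from -1.66 in run A at 0 min to -0.11, and replicate 2 at 90 min stands at 0.47.

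Over the mean of all times, 4 of the 52 rows were lower in KO: H1f1, H2bc14, H2bc18 and H4c14, where 0.398% of all rows tested were lower. The differences were -0.65 ± 0.15 for H1f1 (adjusted p = 0.0469), -0.57 ± 0.12 for H2bc14 (0.024), -0.59 ± 0.13 for H2bc18 (0.035) and -0.59 ± 0.13 for H4c14 (0.0421), each adjusted by Benjamini-Hochberg in limma. In run A these were -0.91, -1.01, -1.01 and -0.84, and in run B -0.52, -0.35, -0.37 and -0.46. The core median was -0.48, with -0.96 in run A and -0.27 in run B, and the variant median was -0.15. Over the 22 core rows of 1 symbol the median was -0.29, with -0.49 in run A and -0.23 in run B. The number of calls moved with single arrays. It was 26 without KO 90 min replicate 2, 8 or 9 without WT 0 min replicate 1 or 3, and 0 to 2 on leaving out any 1 WT array at 45 min, replicate 1 or 3 of either genotype at 90 min, replicate 2 of either genotype at 0 min, replicate 3 of KO at 0 min, or replicate 1 or 2 of KO at 45 min. Centring on ribosomal protein genes moves every row by 0.17 on the log2 scale in this comparison and by 0.26 at 0 min. With it 1 row was called over all times, and the core median was -0.42 at 0 min and -0.31 over all times. The linker and variant medians at 0 min then stood at 0.03 and 0.04, so their sign turned. That linker median is over all 8 rows, 4 of them below the signal limit. For the 4 linker rows tested, the median at 0 min before centring was further from 0, at -0.51 (-0.86 to -0.25).

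Genes that act on histone mRNA and histones, and genes of the cell cycle, were read from lists chosen for the same RNA. Of 24 tested genes of histone mRNA processing and decay, none was called in any comparison. That is near the share over all rows tested, of which 2.27% fell and 0.0557% rose in the mean of both genotypes at 90 min. The median change of the list in that comparison was -0.03. In this list Lsm10, a subunit of the U7 particle that cuts histone pre-mRNA, changed by -0.43 ± 0.18 (limma adjusted p = 0.403), and Casp8ap2, a factor of the histone locus body, by -0.37 ± 0.18 (adjusted p = 0.572). Slbp, the stem-loop binding protein, changed by -0.22 ± 0.19 (adjusted p = 0.927). Lsm10 passed the test with the replicate number or the run as a block and within run B.

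Of 16 tested histone chaperones, 1 was called in any of the 9 comparisons, Chaf1b, a subunit of the CAF-1 complex that deposits new H3 and H4. Chaf1b was lower in KO by 0.40 on the log2 scale over all times (difference -0.40 ± 0.09, limma adjusted p = 0.0476), where 0.398% of all rows tested were lower. That call was lost in 14 of 18 omissions of 1 array. The 0.398% is for this comparison and direction alone, while the count of 1 in 16 is over all 9 comparisons. The list median was -0.06 for the mean of both genotypes at 90 min and -0.04 for KO minus WT over all times.

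Of 26 tested genes of S phase and DNA replication, 1 was called, where 2.27% of all rows tested fell: Cdc45, a part of the replicative helicase, fell by 0.61 ± 0.13 in the mean of both genotypes at 90 min (adjusted p = 0.0183), and lost its call on leaving out replicate 1 of WT or replicate 3 of KO at 90 min, or replicate 1 or 2 of KO at 0 min. The list median was -0.33 in WT, -0.11 in KO and -0.23 in the mean, and 25 of the 27 genes measured were below 0 in the mean, against 5473 of the 12569 rows tested. For KO minus WT the list median was -0.28 at 0 min, with -0.52 in run A and -0.20 in run B, and -0.19 over all times, with 21 of 27 genes below 0 in each, against 6541 and 6578 of the 12569 rows tested. Centred on ribosomal protein genes, these list medians were -0.01 at 0 min and -0.02 over all times, while the core histone medians kept the values below 0 given above. The part of the S phase list in the histone difference was not tested.

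Of 14 tested mitosis genes, 1 was called: Aurka, a mitotic kinase, fell by 0.92 ± 0.22 in WT (limma adjusted p = 0.0424) and by 0.73 ± 0.15 in the mean of both genotypes (adjusted p = 0.0134). Of all rows tested, 1.32% fell in WT and 2.27% in the mean of both genotypes. The WT call was lost in 10 of 18 omissions of 1 array. The list median was -0.16 in the mean of both genotypes, and -0.18 for KO minus WT at 0 min, with -0.82 in run A, 0.01 in run B and 0.08 when centred on ribosomal protein genes. Among markers, the summed log2 signal of the macrophage list lay between 13.19 and 13.69 on all arrays, and that of the progenitor list between 4.23 and 4.51 in WT and 3.91 and 4.24 in KO at 0 min. The progenitor marker Cd34 was lower in KO over all times, at -0.77 (limma adjusted p = 0.00248), where 0.398% of all rows tested were lower. Its mean log2 intensity was 3.04, near the signal limit, and Kit and Flt3 were below the limit. Of the 8 macrophage markers, Mertk was higher in KO over all times, at 0.76 (limma adjusted p = 0.000873), where 86 of the 12569 rows tested were higher. The other 7 were not called, with 3 of the 8 below 0 (Cd14 at -0.26) and a list median of 0.18. The fibroblast marker Col1a2 rose over 90 min in the mean of both genotypes, by 0.43 ± 0.10 (limma adjusted p = 0.0293), where 0.0557% of all rows tested rose. The fibroblast list was summed at 5.42 to 5.62 at 0 min and 5.47 to 5.90 at 90 min. Their part in the histone differences was not tested.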

How the data were processed

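Per the submitters' processing notes, the authors processed the arrays with RMA in Affymetrix Expression Console, without versions in the sources used here. Judged by their range, the deposited values are linear intensities, and log2 was taken with no offset. Histone rows were found by platform symbol (prefixes of the older and current histone names), with symbols from GEO's platform annotation and, where possible, updated through RefSeq of GRCm38.p6. Of 25138 rows, 21039 carried 1 symbol, 1485 several and 2614 none. The members and gene lists were chosen with earlier results of these data known.

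A model of the 6 group means was run in limma 3.58.1 (R 4.3.3) over all 12569 rows tested and 18 arrays, without a block, for 9 comparisons; p-values were adjusted by Benjamini-Hochberg within each at 0.05. Errors are SE from this model unless SD is stated, intervals are 95% intervals not adjusted for the number of rows, and the number of arrays limits precision. No label ties replicates to separate mice or cultures; the p-values thus reflect only how these samples vary, possibly for technical reasons. The fit was tested on simulated data. Zfp36 was named first. Named histone rows were those called (the 25 smallest adjusted p), the 2 brightest rows and the largest mean change of each family; of each other list, up to 3 genes called, otherwise the 2 largest changes. H1f2, H1f10, H2ac1, H2bc4, H2az1, H2az2, Slbp, Cd34, Cd14, Mertk and Col1a2 were named after their values were seen. So were H4c17/H4c11, the row of H2bc6 and H1f4, and the H4 rows with their own symbol other than H4c14. Replicate numbers in the titles were taken to pair arrays where all 3 same-numbered pairs correlated above 0.1 after subtraction of group means. This held for KO at 90 min (0.401 to 0.69), KO at 45 min (0.312 to 0.661), WT at 45 min (0.348 to 0.56) and the genotypes at 0 min (0.152 to 0.367), not for WT at 90 min (lowest -0.281). Alternatives were other scalings, filters, row choices and blocks, run B alone, and leaving out each array.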

Additional observations from a re-analysis of the deposited data

How the results depend on the processing

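The number of histone rows that fell at 90 min lay between 23 and 33 in WT, 0 and 29 in KO, and 35 and 37 in the mean of both genotypes when any 1 array was left out; at 45 min it lay between 0 and 4 in WT and 0 and 3 in KO. For KO against WT it lay between 0 and 3 at 0 min and 0 and 26 over all times. The shares over all rows tested given with the results belong to the model described above, and none is given for the alternatives. These counts thus do not show whether other rows gained or lost calls alike. With the replicate block, 12 rows fell in KO at 90 min, 2 in KO at 45 min and 15 were lower in KO over all times, where the numbers do not pair the arrays; the block moved no other count by over 1.5 times. With the run as a block the counts were 13 (KO, 90 min), 2 (WT, 45 min), 3 (KO, 45 min), 1 (KO against WT, 0 min) and 17 (all times), and within run B alone 9 (WT, 45 min), 8 (KO, 45 min) and 2 (0 min). Centred on ribosomal protein genes they were 14 (KO, 90 min), 2 (KO, 45 min) and 1 (all times), and after quantile normalization 11 (KO, 90 min) and 10 (all times). With only the groups compared, 0 rows fell in KO at 90 min and 0 in WT at 45 min. With no signal filter the counts were 0 (WT, 45 min) and 1 (all times), and with a filter at the 75th percentile 0 (WT, 45 min), where H2bc18 is not tested. With 1 row for each symbol, which drops the shared rows, they were 8 (WT, 90 min), 2 (KO, 90 min) and 12 (mean), and with shared rows averaged, chosen after the data were seen, 15 (WT, 90 min) and 19 (mean). The cause of the other shifts was not tested. The core median in WT at 45 min lay between -1.10 and -0.71 when any 1 array was left out, which passes its spread between replicate numbers (SD 0.21). The other core and variant medians moved by less than that spread under the scalings, blocks and omissions run, though centring on ribosomal protein genes moved the variant median over all times by 0.17, equal to its rounded spread, and turned its sign to 0.02. Over combinations of a named row or gene with an alternative, 142 lost a call, 3 gained one (Lsm10), 0 reversed one and in 4 an uncalled H3f3b value changed sign; H1f5, H1f1, H2bc18, H2bc14, H4c14 and both H2A shared rows kept their calls in WT and in the mean at 90 min in every alternative that tested them. Signal over background limits H2ac4, H2bc18, H4c9 and the row of H2bc6 and H1f4, which ended near the signal limit, and the 14 rows not tested.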
